A study of Homo sapiens with 8 samples.

Results

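The genes described here are 10 transcription factor and response genes of the immediate early class: the AP-1 subunits FOS, FOSB, FOSL2, JUN, JUNB and JUND, the zinc finger factors EGR1, EGR2 and EGR3, and the early response gene IER2. They were taken by symbol from the platform annotation, a rule that uses no measured value, although the list itself was drawn up with earlier results of these data known. Of the 10 genes 9 had a transcript cluster, each had 1, and EGR2 was not analysed here. These 9 clusters are among 17881 on Affymetrix Human Exon arrays, a design that reads all exons of a gene. The cells were labelled RS4;11, a line of B-cell precursor acute lymphoblastic leukemia with an MLL rearrangement, and all carried an shRNA vector and were exposed for 8 h. There were 4 groups of 2 arrays: BTG1 shRNA with prednisolone, BTG1 shRNA with vehicle, control shRNA with prednisolone, and control shRNA with vehicle. The question the design sets is whether the response to prednisolone differs between the vectors. Prednisolone is a synthetic glucocorticoid, and its dose is not given in the sources used here. Whether paired arrays stem from different cultures is stated in no label. The p-values therefore cover array-to-array spread that could be technical, and having 2 arrays a group limits the precision.

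AP-1 is a family of dimers of JUN and FOS proteins, joined by a leucine zipper, that bind short DNA sites and carry signals from MAP kinases to transcription. EGR proteins are zinc finger factors that bind GC-rich sites and are induced in lymphocytes by antigen receptor signalling. Genes of this class are transcribed within minutes of a stimulus, and most of their transcripts decay quickly. The ligand-bound glucocorticoid receptor is known to bind to AP-1 and hold back AP-1-driven promoters such as those of collagenase and cytokine genes, which is one route of the anti-inflammatory action of glucocorticoids.

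The promoter sequences of 4 members are shown because IER2 was the member that differed between groups, JUNB had the most similar profile among the members, and EGR1 and FOS are the textbook cases of control by serum and cAMP response elements. They are RefSeq sequences of build GRCh38.p14, from 250 bases before to 50 bases after the gene's start, 5′ to 3′ on the gene's strand. Capitals mark every match of the motifs searched on both strands, except the TATA box.
IER2 (chr19:13150161-13150460, plus strand): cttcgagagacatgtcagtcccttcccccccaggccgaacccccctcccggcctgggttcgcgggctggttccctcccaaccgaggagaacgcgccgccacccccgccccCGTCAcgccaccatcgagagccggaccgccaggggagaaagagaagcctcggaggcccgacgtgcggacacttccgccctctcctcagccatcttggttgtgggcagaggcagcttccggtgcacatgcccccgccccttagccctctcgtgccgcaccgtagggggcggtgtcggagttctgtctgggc
JUNB (chr19:12791236-12791535, plus strand): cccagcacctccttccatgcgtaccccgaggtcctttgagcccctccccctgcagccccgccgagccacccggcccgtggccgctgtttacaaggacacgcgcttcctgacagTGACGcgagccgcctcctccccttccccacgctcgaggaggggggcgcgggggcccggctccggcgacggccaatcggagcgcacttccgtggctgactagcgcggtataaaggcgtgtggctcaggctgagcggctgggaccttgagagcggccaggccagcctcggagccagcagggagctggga
EGR1 (chr5:138465229-138465528, plus strand): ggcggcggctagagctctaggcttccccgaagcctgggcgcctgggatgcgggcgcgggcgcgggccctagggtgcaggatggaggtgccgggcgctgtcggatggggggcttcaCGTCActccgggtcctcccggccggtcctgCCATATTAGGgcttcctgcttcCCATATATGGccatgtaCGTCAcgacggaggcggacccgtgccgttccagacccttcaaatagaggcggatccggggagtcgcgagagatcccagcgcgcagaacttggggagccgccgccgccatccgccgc
FOS (chr14:75278578-75278877, plus strand): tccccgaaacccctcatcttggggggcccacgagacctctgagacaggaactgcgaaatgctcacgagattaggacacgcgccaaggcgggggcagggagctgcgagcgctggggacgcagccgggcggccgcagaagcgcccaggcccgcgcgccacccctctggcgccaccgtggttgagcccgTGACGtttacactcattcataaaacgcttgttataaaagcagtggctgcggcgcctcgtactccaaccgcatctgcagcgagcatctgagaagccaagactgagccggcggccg
The motifs searched were the cAMP response element TGACGTCA, its core TGACG, which lies inside it, the AP-1 site TGACTCA, the JUN-type site TGACATCA, the CArG box of serum response elements, the EGR site GCGTGGGCG, the glucocorticoid hexamer AGAACA, the palindromic glucocorticoid response element and the TATA box TATAAA. All 8 members with 1 promoter in the table (FOS, FOSB, FOSL2, JUN, JUNB, JUND, EGR1 and IER2) held the core TGACG, against 24.6% of 35116 promoters of the same length. In IER2 the match began at position -140 and in JUNB at -137, counted from the gene's start, and these were the only capitals in both windows. EGR1 held 2 CArG boxes, at -105 and -83, a motif found in 1.29% of all promoters, and its TGACG matches began at -135 and -66. FOS held TGACG at -64 and no CArG box in this window, and sequence beyond the window was not searched. The complete element TGACGTCA was found in JUND, at -200 (1.85% of all promoters), and the JUN-type site in JUN, at -67 (2.61%). FOSL2 held an AP-1 site 5 bases after the start (4.95%), and FOSB the glucocorticoid hexamer at -142 (14.8%). TATA boxes were found in FOS, FOSB and JUNB (11.5%). The EGR site and the palindromic glucocorticoid element were found in 0 of the 8 members, against 0.795% and 0.00285% of all promoters. These are matches of letters in a window and say nothing of occupancy.

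The arrays were checked against their labels before the results. The cluster annotated BTG1;LINC01619 read 8.14 and 7.80 with BTG1 shRNA and prednisolone and 7.15 and 7.42 with BTG1 shRNA and vehicle, against 10.51 and 10.70 with control shRNA and prednisolone and 9.34 and 9.36 with control shRNA and vehicle. The mean log2 level of 10 T-lineage markers was 8.84 to 9.07 on the arrays labelled BTG1 shRNA and 4.20 to 4.91 on the control arrays, although CD2 read 3.16 or less on every array. The mean level of 9 measured B-lineage markers was 3.99 to 4.29 on the arrays labelled BTG1 shRNA and 9.10 to 9.77 on the control arrays. The arrays labelled BTG1 shRNA therefore go against the label RS4;11, and in each comparison of the shRNAs the vector and the lineage markers cannot be told apart. In bulk RNA, fewer cells of a type and less RNA per cell cannot be told apart either. NR3C1, the gene of the glucocorticoid receptor, read 7.12 to 7.77 on the arrays labelled BTG1 shRNA and 9.72 to 10.90 on the control arrays. One library stood apart in its distribution: the first array of control shRNA with vehicle spread over an interquartile range of 2.95 (3.39 to 3.80 elsewhere), and 42.3% of all clusters peaked on it.

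**Figure D1:**
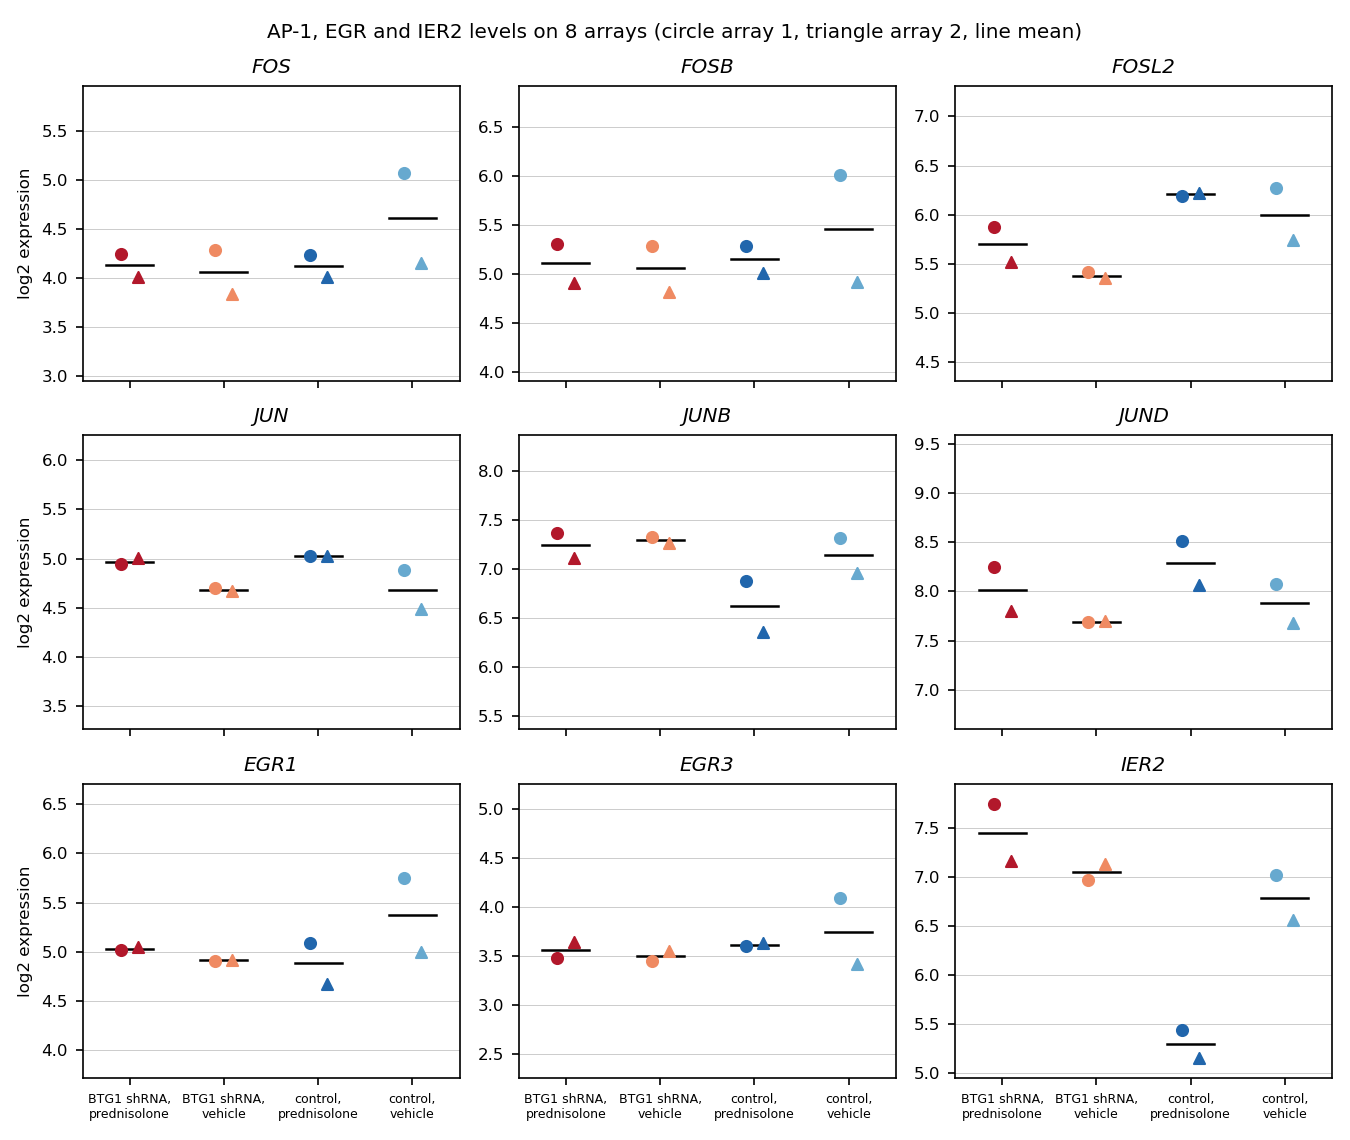
Log2 expression of the 9 measured genes on each array, by group, with a span of 3 log2 units on each vertical axis. Circles are array 1, triangles array 2 and lines the mean of 2. IER2 stands at 5.44 and 5.16 with control shRNA and prednisolone, below the other 6 arrays, and FOS, FOSB, FOSL2, EGR1 and EGR3 have their highest value on the first control vehicle array.

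IER2, induced early by growth factors and other stimuli in many cell types, was the member with the widest range of group means (2.15 on the log2 scale). Its log2 level was 7.74 and 7.16 on the arrays labelled BTG1 shRNA with prednisolone, 6.97 and 7.13 on those with vehicle, 5.44 and 5.16 on control arrays with prednisolone, and 7.02 and 6.56 on control arrays with vehicle. The 2 control prednisolone arrays were thus the lowest of all 8 and did not overlap with any other group. With prednisolone IER2 fell in control shRNA cells to 5.30 ± 0.20, against 6.79 ± 0.33 with vehicle (SD, n = 2 arrays each), a difference of -1.49 (SE 0.26, 2.81-fold, limma adjusted p = 0.0433). On the arrays labelled BTG1 shRNA it averaged 7.45 ± 0.41 with prednisolone and 7.05 ± 0.11 with vehicle (SD, n = 2 each), a difference of 0.40 with a 95% interval of -0.21 to 1.01 (limma adjusted p = 1). Under prednisolone IER2 was higher on the arrays labelled BTG1 shRNA than on control arrays by 2.15 (SE 0.26, 4.44-fold, limma adjusted p = 0.00108), and under vehicle by 0.26 (interval -0.35 to 0.87, adjusted p = 0.483). The fall with prednisolone and the difference between the shRNAs under prednisolone rest on the same 2 control prednisolone arrays. The difference of the prednisolone effects was 1.89 (SE 0.37, 95% interval 1.03 to 2.75) and did not pass over all clusters (limma adjusted p = 0.163). The fall in control cells passed in 6 of 16 alternative settings, and it missed the threshold when any 1 array other than the second control vehicle array was left out (adjusted p = 0.054 to 0.367, with differences of -1.63 to -1.26). The higher level under prednisolone passed in 16 of 16 (1.86 to 2.44).

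IER2 was 1 of 9 members called with prednisolone in control cells, where 1.52% of all clusters were called (0.928% higher and 0.587% lower). On the arrays labelled BTG1 shRNA 0 of 9 members were called by limma, as were 0% of all clusters, and 0 of 9 had an unadjusted p below 0.05. Between the shRNAs 0 of 9 were called under vehicle, against 14.7% of all clusters (8.46% higher and 6.21% lower), with 1 at an unadjusted p below 0.05 (FOSL2). Under prednisolone 1 of 9 was called, IER2, against 17.5% (10% higher and 7.51% lower). For the difference of effects 0 of 9 were called, against 0.134% (0.028% higher and 0.106% lower), with 1 at an unadjusted p below 0.05 (IER2). By the selection named in the series' design, a change over 2-fold with prednisolone, IER2 was the 1 member selected in control cells (5.26% of all clusters), and 0 members were selected on the arrays labelled BTG1 shRNA (0.213%). Between the shRNAs 0 members passed 2-fold under vehicle (14.2%) and 1 under prednisolone (15.8%). The arrays of the groups did not overlap for 3 of 9 members with prednisolone in control cells (41.7% of all clusters), for 5 on the arrays labelled BTG1 shRNA (28.5%), for 4 between the shRNAs under prednisolone (49.9%) and for 2 under vehicle (58.8%). The median difference of the members was -0.31 with prednisolone in control cells, against -0.16 over all clusters, but 0.19 against -0.02 without the first control vehicle array. On the arrays labelled BTG1 shRNA it was 0.12, against 0.03.

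**Figure D2:**
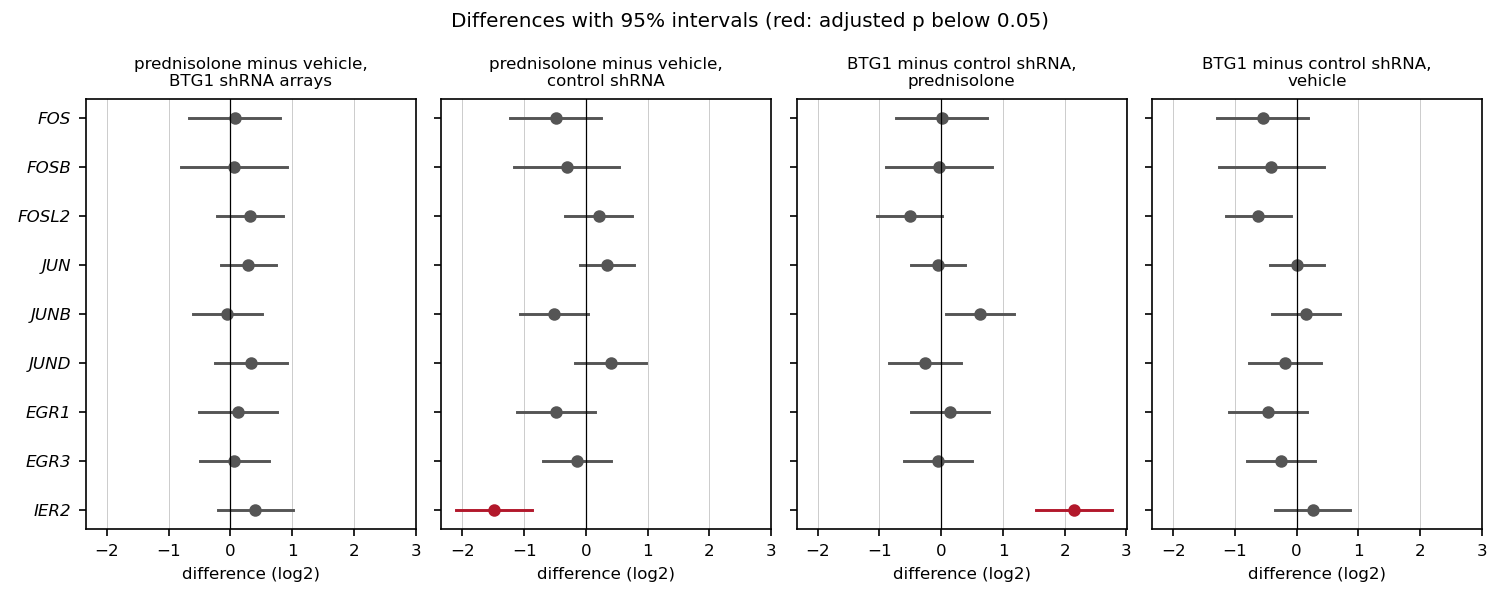
Differences on the log2 scale with 95% intervals from limma for the 9 genes, in 4 comparisons of 2 against 2 arrays. Red marks an adjusted p below 0.05, which IER2 reached with prednisolone in control cells (-1.49) and between the shRNAs under prednisolone (2.15).

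The FOS proteins pair with JUN proteins and cannot form stable dimers with one another. FOS, the founding subunit, had log2 levels of 4.24 and 4.01 on the arrays labelled BTG1 shRNA with prednisolone, 4.28 and 3.84 on those with vehicle, 4.23 and 4.01 on control arrays with prednisolone, and 5.07 and 4.15 on control arrays with vehicle. The groups overlapped in each of the 4 comparisons, and the first control vehicle array stood above the other 7. The prednisolone effect on FOS was -0.49 in control cells (95% interval -1.23 to 0.24) and 0.07 on the arrays labelled BTG1 shRNA (-0.67 to 0.80). Without the first control vehicle array the effect in control cells was -0.04 (-0.64 to 0.56), and without the second it was -0.95 (limma adjusted p = 0.0627). Between the shRNAs under vehicle FOS differed by -0.55 (limma adjusted p = 0.28), by -0.10 without the first control vehicle array, and by -1.01 without the second, which passed (adjusted p = 0.03). FOS lay between the 31.1th and 43.3th percentile of its arrays, and with no detection calls its level above background is unknown.

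FOSB, a FOS relative known for stable splice forms in neurons, read 5.31 and 4.91 with BTG1 shRNA and prednisolone, 5.29 and 4.82 with BTG1 shRNA and vehicle, 5.29 and 5.01 with control shRNA and prednisolone, and 6.01 and 4.92 with control shRNA and vehicle. Its groups overlapped throughout, and the first control vehicle array was again the highest. The prednisolone effect in control cells was -0.31 (interval -1.16 to 0.54) with all arrays, 0.24 (-0.45 to 0.92) without that array and -0.86 without the second control vehicle array (limma adjusted p = 0.079). Between the shRNAs under vehicle the difference was -0.41 (limma adjusted p = 0.447), 0.14 without the first control vehicle array and -0.95 without the second, which passed (adjusted p = 0.0452). FOS and FOSB followed each other over the 8 arrays, with a Pearson correlation of 0.97 that the first control vehicle array takes part in.

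FOSL2, which encodes the FOS relative FRA2, had a level of 5.87 and 5.52 with BTG1 shRNA and prednisolone, 5.42 and 5.35 with BTG1 shRNA and vehicle, 6.19 and 6.22 with control shRNA and prednisolone, and 6.27 and 5.74 with control shRNA and vehicle. All 4 arrays labelled BTG1 shRNA were below the control arrays of the same treatment. The difference was -0.51 (SE 0.23, adjusted p = 0.202) under prednisolone and -0.62 (SE 0.23, adjusted p = 0.126) under vehicle, and neither passed with limma. With each array's median subtracted, the difference under prednisolone was -0.64 and passed (limma adjusted p = 0.04). The difference under vehicle was -0.88 and passed without the second control vehicle array (limma adjusted p = 0.0274), and was -0.35 without the first (adjusted p = 0.434). The prednisolone effect was 0.31 on the arrays labelled BTG1 shRNA (interval -0.22 to 0.85) and 0.21 in control cells (-0.33 to 0.74).

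JUN proteins form dimers with themselves, with FOS proteins and with ATF proteins, and differ in how strongly they activate. JUN, the strongest activator of the family, had levels of 4.94 and 5.01 with BTG1 shRNA and prednisolone against 4.70 and 4.67 with BTG1 shRNA and vehicle, and 5.03 and 5.03 with control shRNA and prednisolone against 4.88 and 4.49 with control shRNA and vehicle. The prednisolone arrays were above the vehicle arrays with either vector. The differences were small, 0.29 (interval -0.15 to 0.73) on the arrays labelled BTG1 shRNA and 0.35 (-0.09 to 0.78) in control cells, and neither passed (limma adjusted p = 1 and 0.442). In control cells the effect was 0.54 without the first control vehicle array and 0.15 without the second. After quantile normalization it was 0.53 there (SE 0.13, limma adjusted p = 0.128). Between the vectors JUN differed by -0.06 under prednisolone (-0.49 to 0.38) and by 0.00 under vehicle (-0.43 to 0.44). JUN lay between the 40th and 48.7th percentile of its arrays, and with no detection calls its level above background is unknown.

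JUNB, which activates more weakly than JUN and can oppose it, read 7.37 and 7.11 with BTG1 shRNA and prednisolone, 7.32 and 7.26 with BTG1 shRNA and vehicle, 6.88 and 6.36 with control shRNA and prednisolone, and 7.31 and 6.96 with control shRNA and vehicle. As for IER2, the 2 control prednisolone arrays were the lowest of the 8. The prednisolone effect in control cells was -0.52 (SE 0.24, interval -1.07 to 0.03, limma adjusted p = 0.379), and on the arrays labelled BTG1 shRNA it was -0.05 (interval -0.60 to 0.51). Under prednisolone JUNB differed between the shRNAs by 0.63 (interval 0.08 to 1.18), which did not pass over all clusters (limma adjusted p = 0.126). JUNB and IER2 had a Pearson correlation of 0.90 over the 8 arrays, a description in which the points share the 4 groups.

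JUND, the JUN relative that many resting cells express steadily, had levels of 8.25 and 7.80 with BTG1 shRNA and prednisolone, 7.69 and 7.70 with BTG1 shRNA and vehicle, 8.51 and 8.07 with control shRNA and prednisolone, and 8.08 and 7.68 with control shRNA and vehicle. The prednisolone arrays lay above the vehicle arrays with BTG1 shRNA and overlapped with them in control cells, where 8.07 and 8.08 were the values that crossed. The effect was 0.33 (interval -0.25 to 0.91) on the arrays labelled BTG1 shRNA and 0.40 (-0.18 to 0.98) in control cells. The difference of these effects was -0.07 (-0.90 to 0.75).

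EGR1, an early target of ERK signalling through its serum response elements, read 5.02 and 5.05 with BTG1 shRNA and prednisolone, 4.90 and 4.92 with BTG1 shRNA and vehicle, 5.09 and 4.67 with control shRNA and prednisolone, and 5.75 and 5.00 with control shRNA and vehicle. The first control vehicle array stood above the other 7, which spanned 4.67 to 5.09. The prednisolone effect was 0.12 (interval -0.51 to 0.75) on the arrays labelled BTG1 shRNA and -0.49 (-1.12 to 0.15) in control cells, where it was -0.11 (-0.65 to 0.42) without the first control vehicle array and -0.86 without the second (limma adjusted p = 0.0616). Between the shRNAs under vehicle EGR1 differed by -0.46 (limma adjusted p = 0.29), by -0.09 without the first control vehicle array, and by -0.84 without the second, which passed (adjusted p = 0.0353). EGR3, an EGR factor that antigen receptor signals induce in T cells, read 3.48 and 3.64 with BTG1 shRNA and prednisolone, 3.45 and 3.55 with BTG1 shRNA and vehicle, 3.60 and 3.63 with control shRNA and prednisolone, and 4.09 and 3.42 with control shRNA and vehicle. Its other 7 arrays spanned 3.42 to 3.64, and its place between the 20.4th and 26.5th percentile leaves its level above background unknown. No difference of EGR3 exceeded 0.25 in size in the 4 comparisons of groups, and each interval included 0.

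The array behind these high values was examined across the members. All 9 members were higher on the first than on the second control vehicle array, by 0.36 to 1.09 (median 0.53), where 61.2% of all clusters were. Of the 9 members 5 had their highest value on the first control vehicle array (FOS, FOSB, FOSL2, EGR1 and EGR3), against 42.3% of all clusters. After quantile normalization FOS, FOSB and EGR1 were still highest there (4.80 against 4.29 at most on the other 7 arrays for FOS, 6.04 against 5.33 for FOSB, and 5.68 against 5.11 for EGR1), as was FOSL2. JUNB was highest there only after that step (7.56 against 7.42, and 7.31 against 7.37 before it), and EGR3 no longer was (3.72 against 3.75), so that 5 of 9 members were highest there, against 31.2% of all clusters. The values of FOS, FOSB and EGR1 without each of the 2 control vehicle arrays are given with each gene above.

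**Figure D3:**
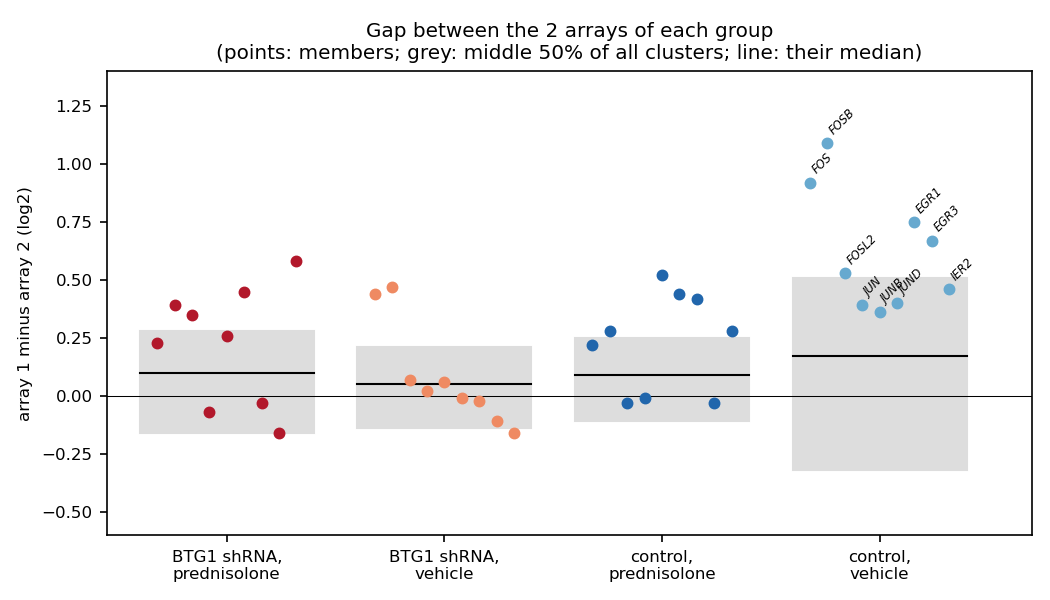
Difference between array 1 and array 2 of each group (log2), with a point for each of the 9 genes, a grey band for the middle 50% of all 17881 clusters and a line at their median. All 9 points of the control vehicle group are above 0, between 0.36 and 1.09.

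By rule, profiles like those of the 3 members with the widest range of group means (IER2, FOSL2 and JUNB) were sought among 3758 single-gene clusters with an SD of at least 0.5 over the 8 arrays. The highest Pearson correlations with IER2 were those of PTGES2, SLC25A22 and PLCB3 (0.981 each), PLXNB1 (0.980) and CACNB3 (0.978). SLC25A22, a mitochondrial glutamate carrier, had 8.58 and 7.92 with BTG1 shRNA and prednisolone, 8.23 and 8.23 with BTG1 shRNA and vehicle, 6.82 and 6.60 with control shRNA and prednisolone, and 8.05 and 7.81 with control shRNA and vehicle, so its 2 control prednisolone arrays were also the lowest. Since these clusters were chosen for their likeness to IER2 on the same arrays, their differences are a description: up to 1.54 between the shRNAs under prednisolone, and -1.22 to -0.76 with prednisolone in control cells. JUNB was most like DUSP2 (0.975), a nuclear phosphatase that inactivates MAP kinases and is itself an immediate early gene. Next for JUNB came PITPNM1 (0.971), NLRC3 (0.957), SLC39A3 (0.956) and NUDT8 (0.954), which are not in the list of immediate early genes used here. DUSP2 read 7.93 and 7.80 with BTG1 shRNA and prednisolone, 8.05 and 7.86 with BTG1 shRNA and vehicle, 6.87 and 6.21 with control shRNA and prednisolone, and 7.90 and 7.21 with control shRNA and vehicle. FOSL2 was most like the adrenergic receptor gene ADRA2C (0.978), the helicase gene DHX58 (0.964), GP9 (0.964), STAB1 (0.961) and TBXA2R (0.960). These correlations describe 8 arrays in 4 groups.

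**Figure D4:**
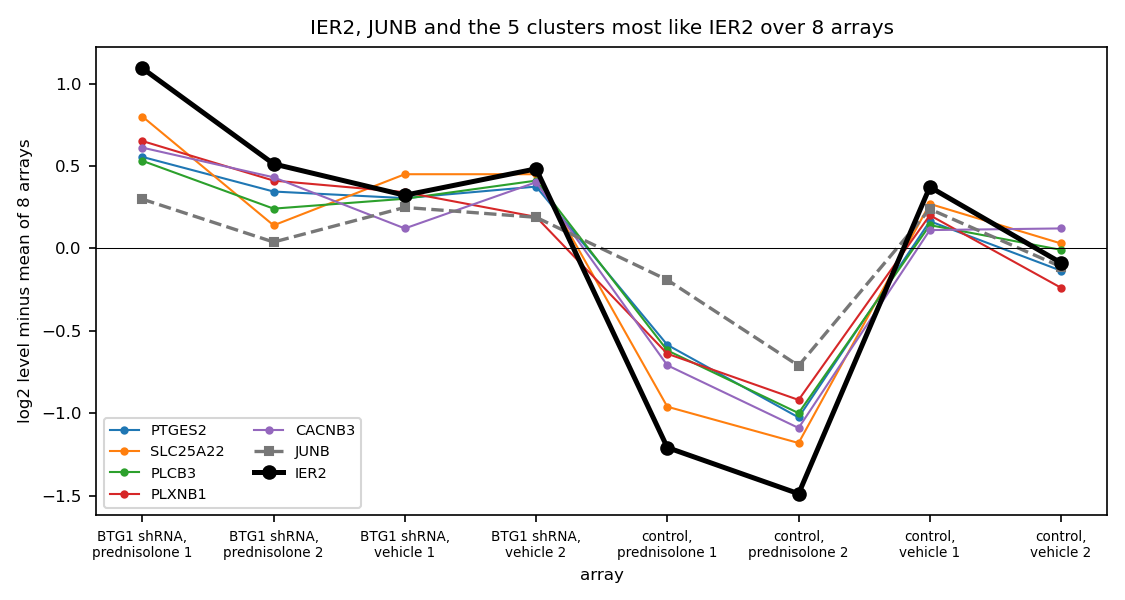
Log2 level minus the mean over 8 arrays for IER2, JUNB and the 5 clusters with the highest correlation with IER2, with the arrays along the horizontal axis by group. The 2 control prednisolone arrays are the lowest for all 7 genes.

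The wider immediate early class was read from a list of other such genes, 25 of 31 with a single-gene cluster. With prednisolone in control cells 0 of the 25 were called higher (0.928% of all clusters were) and 1 was called lower (0.587% of all clusters were). Called or not, 11 of the 25 had a positive difference. The gene called lower was TRIB1, a pseudokinase that promotes C/EBP-alpha degradation (-1.53, SE 0.19, limma adjusted p = 0.0127). The list's median was -0.04, against -0.16 over all clusters, and 0.14 against -0.02 without the first control vehicle array. TRIB1 had 4.65 and 4.48 with BTG1 shRNA and prednisolone against 4.13 and 3.99 with BTG1 shRNA and vehicle, and 4.78 and 4.44 with control shRNA and prednisolone against 6.21 and 6.06 with control shRNA and vehicle. It thus stood apart on the 2 control vehicle arrays, whereas IER2 stood apart on the 2 control prednisolone arrays. CD69, an early activation antigen of lymphocytes, was at 1.58 in control cells and did not pass (limma adjusted p = 0.0726). On the arrays labelled BTG1 shRNA 0 of the 25 passed with prednisolone, as did 0% of all clusters. There 3 of the 25 had an unadjusted p below 0.05, against 186 of 17881 clusters. In control cells 9 of the 25 had an unadjusted p below 0.05, against 2526 of 17881 clusters.

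Between the shRNAs, 6 of these 25 genes were called lower and 2 higher on the arrays labelled BTG1 shRNA under prednisolone. Under vehicle 7 were called lower and 1 higher. Over all clusters 7.51% were called lower and 10% higher under prednisolone, and 6.21% lower and 8.46% higher under vehicle. RHOB, a small GTPase, was lower by -2.64 under prednisolone and -2.44 under vehicle (SE 0.19 each). ZFP36L1, which speeds the decay of AU-rich mRNAs, was lower by -2.97 and -2.61 (SE 0.31 each). DUSP1, a phosphatase for JNK and p38, was lower by -1.36 and -1.71 (SE 0.16 each), and its 4 prednisolone and vehicle values in control cells, 9.41, 9.38, 9.53 and 9.59, differed by -0.17 in their means (limma adjusted p = 0.548). GADD45B and KLF6, a stress sensor and a zinc finger factor, were lower under prednisolone by -1.91 (SE 0.22) and -1.40 (SE 0.18). Under vehicle they were lower by -1.16 and -0.82 (limma adjusted p = 0.0104 and 0.0196). The 2 higher under prednisolone were DUSP2, by 1.33, and MYC, by 0.93 (limma adjusted p = 0.0197 and 0.0137). Under vehicle these genes differed by 0.40 and 0.28 (limma adjusted p = 0.377 and 0.348). CD69 was higher under vehicle by 1.85 (SE 0.32) and differed by -0.14 under prednisolone (limma adjusted p = 0.978). The limma adjusted p of the remaining differences between the shRNAs named here was 9.28e-05 to 0.00756. The B- and T-lineage markers move with the same comparison, and their part in it was not tested.

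Among 12 measured other AP-1 and ATF genes, BATF3, a JUN partner, was higher on the arrays labelled BTG1 shRNA by 1.49 under prednisolone (SE 0.24, limma adjusted p = 0.00431) and 1.62 under vehicle (SE 0.24, adjusted p = 0.00342), and JDP2, which represses AP-1 sites, was lower under prednisolone by -1.18 (SE 0.30, adjusted p = 0.032). These were 2 of 12 called under prednisolone, where 17.5% of all clusters were called, and 1 of 12 under vehicle, where 14.7% were, so neither share stands above that of all clusters. Of this list 0 of 12 were called with prednisolone with either vector by limma (1.52% of all clusters in control cells, 0% on the arrays labelled BTG1 shRNA). An unadjusted p below 0.05 was reached by 2 of 12 in control cells, against 2526 of 17881 clusters. On the arrays labelled BTG1 shRNA 2 of 12 reached it, against 186 of 17881 clusters. Among 12 regulators of EGR genes and of the serum response element, MEF2C was lower by -6.26 under prednisolone and -6.29 under vehicle (SE 0.22 each), and MEF2D by -0.94 and -1.72 (SE 0.21 each), while SRF and ELK1 differed by 0.47 and 0.15 under prednisolone (limma adjusted p = 0.123 and 0.894). NAB2, a corepressor of EGR proteins and their target, was at -1.10 with prednisolone in control cells (limma adjusted p = 0.102). Of 9 measured kinases of the MAPK cascade, of 17 in the list, RPS6KA2, which encodes the ribosomal S6 kinase RSK3, rose with prednisolone in control cells by 1.64 (SE 0.22, limma adjusted p = 0.0155). The ERK gene MAPK3 and the JNK genes MAPK8 and MAPK9 were at 0.08, 0.47 and 0.73 there and did not pass.

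Of 13 measured genes known for AP-1-driven promoters that glucocorticoids repress, 2 were called lower with prednisolone in control cells (0.587% of all clusters were). Called higher were 0 of 13 (0.928% of all clusters), and the list's median was -0.40, against -0.16 over all clusters. IL1B had 4.91 and 5.03 with control shRNA and prednisolone, against 7.96 and 8.37 with control shRNA and vehicle (-3.19, SE 0.21, limma adjusted p = 0.00139). PLAUR, the urokinase receptor, had 4.46 and 4.25 with control shRNA and prednisolone, against 6.61 and 6.48 with control shRNA and vehicle (-2.19, SE 0.17, adjusted p = 0.00293). ICAM1, TNF and PLAU were at -0.62, -0.75 and -0.58 in control cells and did not pass (limma adjusted p = 0.262, 0.297 and 0.335). In control cells 5 of 13 had an unadjusted p below 0.05, against 2526 of 17881 clusters. The collagenase MMP1 and the cytokine genes IL2, CXCL8 and CCL2 read 3.88 or less on every array, and the differences of these 4 in control cells were -0.40 to -0.10. All 13 had a negative difference in control cells, but 7 of 13 without the first control vehicle array, when the list's median was -0.04 and 2 genes were called. On the arrays labelled BTG1 shRNA 0 of 13 were called by limma with prednisolone, as were 0% of all clusters. There 0 of 13 had an unadjusted p below 0.05, against 186 of 17881 clusters.

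**Figure D5:**
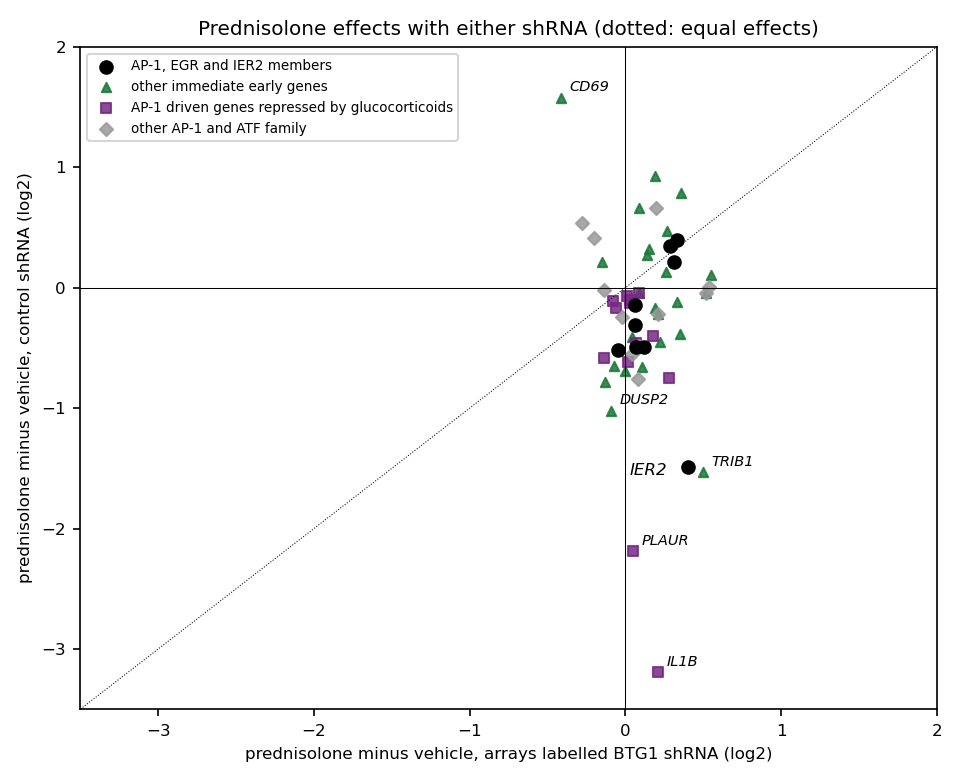
Prednisolone effect (log2) on the arrays labelled BTG1 shRNA on the horizontal axis and in control shRNA cells on the vertical axis, which share no array. Black points are the 9 members, and green triangles, purple squares and grey diamonds are the measured genes of 3 of the lists. IER2 (0.40 and -1.49) lies apart from the other 8 members, and IL1B and PLAUR are the lowest points.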

How the data were processed

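RNA of 8 samples was labelled with biotin and hybridised to exon arrays, with probes summarised over core meta-probe sets built on hg18, per the labels. Partek software and RMA summarisation appear in, and are credited to, the submitters' processing notes. The deposited table's values had mostly lost their decimal points, so its columns were recorded as a score. They were taken as log2 expression values, the scale RMA gives and the range of the deposited values that kept a point. Of 143048 values 153 kept a point (2.47 to 12.25). Each value was given 1 digit before the point, or 2 digits if its leading digit was 1 (2831 values). Correlations between arrays were 0.446 to 0.587 before and 0.872 to 0.995 after. Plain log2 values had been assumed when the tests were chosen, and the planned tests were kept.

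Means of the 4 groups were estimated for each of 17881 clusters with limma 3.58.1 (lmFit, eBayes) in R 4.3.3, with no further normalization or filter, and checked on simulated data. Benjamini-Hochberg adjustment ran over the whole table, and the threshold was 0.05. All members are named. Other list genes were drawn from the 5 with the smallest p per comparison, but not all of those, nor every list gene called, are named. A few list genes with no call were picked for their role after their values were seen. The 5 clusters most like each of 3 members are also named. Lists used clusters with 1 symbol, and ATF3, MAFF and PTGS2 are each in 2 lists. Symbols came from the platform annotation. The members and lists were chosen with earlier results of these data known. Alternatives covered normalization, filter, spread estimate, weights, samples, replicate block, left-out arrays and restoring of points.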

Additional observations from a re-analysis of the deposited data

Results flagged for a closer look

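The prednisolone effect of 2 of 13 measured genes from the list of AP-1-driven genes differed by a test of the difference itself. Over all clusters 0.134% were called in that test (0.028% higher and 0.106% lower). The comparison is between the arrays labelled BTG1 shRNA and the control arrays, where the vector and the lineage markers cannot be told apart. For IL1B the effect was higher on the arrays labelled BTG1 shRNA than in control cells by 3.41 (SE 0.30, limma adjusted p = 0.0174), and for PLAUR by 2.24 (SE 0.24, adjusted p = 0.0402). IL1B read 3.62 and 3.26 with BTG1 shRNA and prednisolone and 3.18 and 3.28 with BTG1 shRNA and vehicle, and with no detection calls its level above background there is unknown. PLAUR read 5.43 and 5.37 with BTG1 shRNA and prednisolone and 5.40 and 5.31 with BTG1 shRNA and vehicle, which lies between the control prednisolone and control vehicle arrays. The IL1B difference passed in 7 of 14 alternative settings (3.20 to 3.61, adjusted p = 0.00562 to 0.153) and the PLAUR difference in 8 of 15 (2.07 to 2.34, adjusted p = 0.0141 to 0.332).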

How the results depend on the processing

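Of the counts of members called, that with prednisolone in control cells was 0 with array weights, with only the 4 arrays of the contrast and after quantile normalization, and 0 to 1 with each array left out in turn. Between the shRNAs under vehicle it was 0 to 4 with each array left out, the 4 being FOS (-1.01), FOSB (-0.95), FOSL2 (-0.88) and EGR1 (-0.84) without the second control vehicle array. Under prednisolone it was 2 with each array's median subtracted, which added FOSL2. The differences between array 1 and array 2 correlated between groups at 0.263 to 0.593 in 5 of 6 pairs of groups and at 0.00722 in the other, BTG1 shRNA with vehicle against control shRNA with prednisolone. Most groups thus share a component with the replicate number, but as 1 pair does not and no label ties the numbers to a shared culture or day, they were not treated as pairing the samples. With the replicate block the count under vehicle was 1 (FOSL2, adjusted p = 0.0481) and under prednisolone 2 (IER2, and JUNB with adjusted p = 0.0329), and it called 4553 clusters in place of 2623 under vehicle, 755 in place of 271 with prednisolone in control cells and 96 in place of 24 for the difference of effects (limma). The cause of these changes was not tested. Small differences turned sign. After quantile normalization the prednisolone effect of EGR3 in control cells was 0.08, those on the arrays labelled BTG1 shRNA were -0.04 for FOS, -0.02 for FOSB, 0.03 for JUNB and -0.04 for EGR3, the differences between the shRNAs under vehicle were -0.04 for JUNB and 0.04 for EGR3, that of FOS under prednisolone was -0.05, and the differences of effects were 0.16 for JUND and -0.12 for EGR3. With medians subtracted FOS was at -0.12 between the shRNAs under prednisolone and FOSL2 at -0.06 for the difference of effects. With each array left out in turn, the prednisolone effect in control cells ran over -0.86 to 0.24 for FOSB, -0.06 to 0.47 for FOSL2 and -0.48 to 0.19 for EGR3. On the arrays labelled BTG1 shRNA it ran over -0.15 to 0.28 for FOS, -0.18 to 0.29 for FOSB, -0.18 to 0.08 for JUNB and -0.02 to 0.14 for EGR3. Between the shRNAs the ranges under prednisolone were -0.11 to 0.12 for FOS, -0.24 to 0.16 for FOSB, -0.06 to 0.36 for EGR1 and -0.13 to 0.03 for EGR3, and under vehicle -0.95 to 0.14 for FOSB, -0.19 to 0.20 for JUN, -0.03 to 0.33 for JUNB, -0.39 to 0.01 for JUND and -0.59 to 0.08 for EGR3. The differences of effects ran over -0.18 to 0.91 for FOSB, -0.16 to 0.37 for FOSL2, -0.25 to 0.13 for JUN, -0.30 to 0.15 for JUND and -0.13 to 0.53 for EGR3. Where 1 array of a group was left, its spread was taken from the other groups. The filter on a mean of at least 5 left FOS, JUN and EGR3 out of that fit. The counts of lists without the first control vehicle array and the levels after quantile normalization were chosen after seeing the data.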
